A study of Saccharomyces cerevisiae with 2 samples.

Results

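The proteins of the large subunit of the cytosolic ribosome in the budding yeast Saccharomyces cerevisiae are encoded by 81 of the 6603 open reading frames (ORFs) listed for this study. They were taken as all ORFs with an RPL name, with or without a final A or B, together with RPP0 and the RPP1 and RPP2 genes of the stalk. Of the 81 genes, 70 form 35 pairs of an A and a B copy, and 11 have no copy. All 81 had more than the 20 reads over both libraries that were asked of an ORF.

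Messenger RNA was sequenced in 1 library per strain. Strain CY2706 has the wild-type TRA1 gene, and strain CY3003 has the allele tra1-L3733A. Both strains grew at 30 °C in YP medium with 2% glucose until the A600 reached 2.0. Below, the library of CY2706 is called wild type and that of CY3003 mutant, and pairs of values give wild type first. The series asks how expression changes with this allele of TRA1, which encodes a subunit shared by the histone acetyltransferase complexes SAGA and NuA4. The listed ORFs held 11564964 (wild type) and 9970836 (mutant) counts. TRA1 itself counted 12035 against 5102 reads, a mutant to wild-type ratio of 0.526 (95% counting interval 0.509 to 0.544). There was 1 library per strain, so every ratio compares these libraries and has no replicate check, and the intervals cover counting error only.

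The large subunit forms the peptide bond, and the growing chain leaves it through an exit tunnel whose rim is built partly from ribosomal proteins. A stalk of acidic proteins on its side recruits the factors that drive translation. Most of its proteins are needed in equal numbers. In yeast many of them are made from duplicated genes that date from an ancient genome duplication, and the proteins of a pair are usually identical or nearly so. Transcription of these genes depends on activators such as Rap1, Fhl1, Ifh1 and Sfp1 and follows growth signals through the TOR and PKA pathways.

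Since the 35-base reads can separate copies only where their sequences differ, a pair that they separate well and a pair that they separate poorly are shown. The coding sequences of RPL27A and RPL27B, whose mutant to wild-type ratios differed most, differ at 42 of 411 aligned bases, and all of their 35-base windows were found in 1 copy only. The first 300 bases of the spliced coding sequence in the R64 reference (RefSeq) are shown, with the 30 differing bases in capitals. They come from chrVIII:126521-127381 and chrIV:1401770-1402453, both on the forward strand, with the intron left out.
RPL27A: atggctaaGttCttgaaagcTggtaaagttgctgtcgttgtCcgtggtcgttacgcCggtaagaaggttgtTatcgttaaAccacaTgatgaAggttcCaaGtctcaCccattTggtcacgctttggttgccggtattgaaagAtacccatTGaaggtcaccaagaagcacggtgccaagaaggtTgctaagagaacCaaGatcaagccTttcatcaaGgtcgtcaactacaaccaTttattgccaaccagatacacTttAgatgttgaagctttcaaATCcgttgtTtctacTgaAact
RPL27B: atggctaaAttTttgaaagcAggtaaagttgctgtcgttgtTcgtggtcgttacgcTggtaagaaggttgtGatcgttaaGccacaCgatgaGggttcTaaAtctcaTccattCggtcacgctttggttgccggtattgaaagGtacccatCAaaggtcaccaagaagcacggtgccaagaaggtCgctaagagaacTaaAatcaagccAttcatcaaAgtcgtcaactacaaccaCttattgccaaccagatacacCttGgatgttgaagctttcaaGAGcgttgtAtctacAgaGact

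RPL41A and RPL41B encode the shortest and most basic protein of the ribosome, and their coding sequences differ at 1 of 78 bases. Only 20.5% of their 35-base windows were found in 1 copy only. They lie in R64 at chrIV:130407-130484 and chrIV:221724-221801, both on the reverse strand, and capitals again mark the difference.
RPL41A: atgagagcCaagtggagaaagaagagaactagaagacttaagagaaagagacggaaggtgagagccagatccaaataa
RPL41B: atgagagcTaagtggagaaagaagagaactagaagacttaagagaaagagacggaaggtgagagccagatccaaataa

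Most of the large subunit genes gave a lower value in the mutant than in the wild type, by a modest amount in most cases and by 1.5-fold or more in a few. Of the 81 genes, 9 had a mutant to wild-type ratio of 0.667 or less with an interval below 1, against 5.46% of all 6248 tested ORFs. None was at least 1.5-fold higher, against 2.8% of all tested ORFs. The median log2 ratio was -0.16, beside -0.00 over all tested ORFs, and 62 of the 81 log2 ratios lay below 0, against 50.4% of all. In bulk RNA, less transcript per cell and fewer cells with the transcript cannot be told apart. The interval lay wholly below 1 for 54 genes, against 25.5% of all tested ORFs, and wholly above 1 for 13, against 24.2%, and it held 1 for 14. More reads give narrower intervals, so ORFs with many reads exclude 1 more often. Of 878 other ORFs with wild-type counts per coding base at or above the lowest member, 312 lay wholly below 1 and 386 above. With scaling by total counts 69 members lay below and 1 above, and with the GC trend removed 64 below and 6 above. Ratios ran from 0.470 for RPL27B to 1.14 for RPP0, and 38 genes lay between 0.9 and 1.1. Scaled by total counts or by lane reads, 13 genes were lower, against 8.24% and 8.0% of all tested ORFs. The count was 10 with the GC trend removed (5.74% of all), 13 in the forward read column alone (6.01%) and 8 without overlapping ORFs (5.67%).

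**Figure D1:**
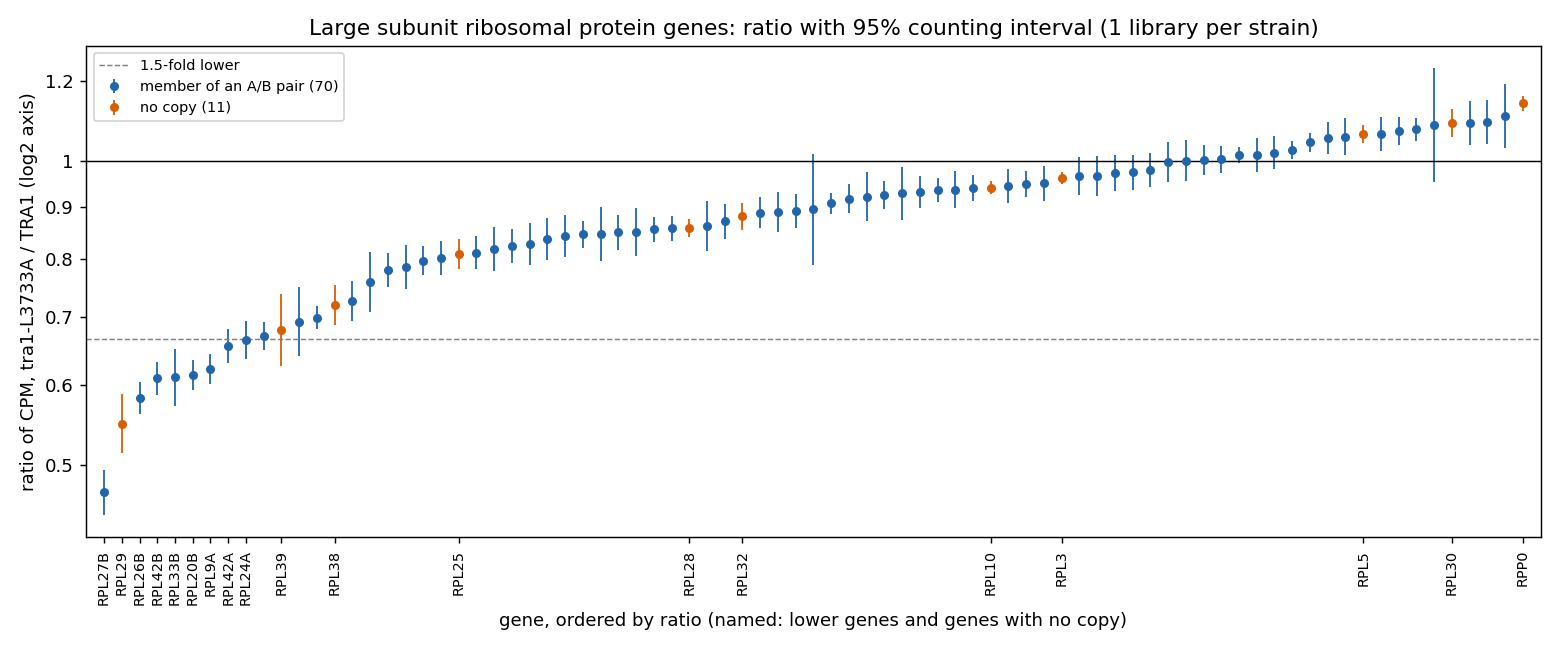
Ratio of library-scaled counts, mutant over wild type, on a log2 axis for each of the 81 genes in order of ratio, with 95% counting intervals as bars, 70 genes of A and B pairs in blue and 11 genes with no copy in orange, and names under the 9 lower genes and the genes with no copy. From RPL27B at 0.470 to RPL24A at 0.665, 9 genes lie below the dashed line of a 1.5-fold lower ratio, and RPP0 is highest at 1.14.

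As a share of all counts in listed ORFs, the 81 genes held 682627 reads or 5.90% (5.89 to 5.92%, exact binomial) in the wild type. In the mutant they held 498271 reads or 4.997% (4.984 to 5.011%). The share of the 70 genes with a copy went from 4.25% to 3.51%, and that of the 11 genes with no copy from 1.66% to 1.49%. These shares do not depend on how the libraries were scaled.

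The levels, as counts per 1000000 (CPM) per kilobase of R64 coding sequence, spanned a 36.2-fold range in the wild type. RPL10, which joins the subunit late in its maturation, was highest at 4881 in the wild type and 4589 in the mutant. RPL28, whose protein is the site of classical cycloheximide resistance mutations, came next at 4215 and 3617. RPL3, whose protein lies close to the peptidyl transferase centre, was at 3216 and 3091. At the other end RPL22B was at 135 and 121, and RPL15B at 338 and 314, each far below its A copy. Of the 20 genes with the highest level in the wild type, 3 were among the 9 lower genes. For 57 genes the listed ORF is 147 to 927 bases longer than the coding sequence, since it takes in introns or other sequence, and reads there count for the gene.

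**Figure D2:**
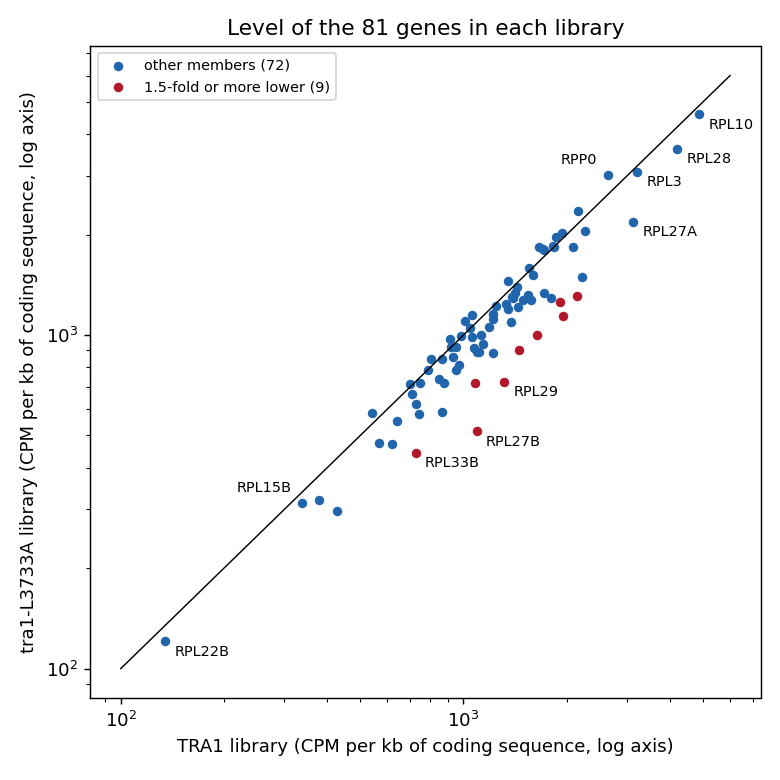
Level of each of the 81 genes in CPM per kilobase of coding sequence, wild type across and mutant up, both on log axes, with the line of equal levels and the 9 lower genes in red. The lower genes lie between RPL33B, at 727 in the wild type, and RPL42B, at 2151, and not at the ends of the range.

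Among the 9 lower genes, RPL27B (YDR471W, IV, 1401763 to 1402557 in the files' coordinates) stood farthest from 1. It counted 5383 against 2037 reads, or 449.9 and 211 CPM, a ratio of 0.470 (0.446 to 0.494). It was the only member past 2-fold, a difference shown by 0.912% of all tested ORFs in the lower direction.

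RPL29 (YFR032C-A, VI, 223246 to 223759), which encodes a small nonessential protein, counted 2838 against 1256 reads, giving a ratio of 0.549 (0.514 to 0.587). Its ratio was 0.408 on reads of the forward column and 0.607 on those of the reverse column, and it overlaps YFR032C-B. Both columns put it below the 1.5-fold line. RPL26B (YGR034W, VII, 555816 to 556676), whose protein sits near the tunnel exit, counted 8996 against 4223 reads, giving a ratio of 0.583 (0.562 to 0.605). RPL20B (YOR312C, XV, 900247 to 901191) counted 10161 against 5020 reads, giving a ratio of 0.613 (0.593 to 0.634). RPL33B (YOR234C, XV, 778556 to 779406) counted 2820 against 1386 reads, giving a ratio of 0.610 (0.572 to 0.651). These 3 genes are B copies whose A copies were nearer to 1.

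RPL9A (YGL147C, VII, 227759 to 228334) counted 10019 against 5024 reads, giving a ratio of 0.622 (0.602 to 0.644). RPL42A and RPL42B encode a protein of the tRNA exit site and were both lower. RPL42A (YNL162W, XIV, 331324 to 332156) counted 7368 against 3890 reads, giving a ratio of 0.655 (0.630 to 0.681), and RPL42B (YHR141C, VIII, 381993 to 382754) counted 8262 against 4053 reads, giving a ratio of 0.609 (0.586 to 0.632). Only 39.0% of the coding windows of either are found in 1 copy only, so their values may share reads. RPL24A (YGL031C, VII, 437472 to 438402), for a protein that bridges the subunits and joins late, counted 6047 against 3239 reads, giving a ratio of 0.665 (0.637 to 0.694).

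RPL24A and RPL42A were the lower genes nearest to the 1.5-fold line. Just outside it lay RPL23B, for a protein that also faces the small subunit, with 11020 and 5957 reads and a ratio of 0.671 (0.650 to 0.693). RPL39 followed at 0.680 (0.626 to 0.738). With a difference of 25% in place of 1.5-fold, 19 members were lower and 0 higher, against 14.4% and 10.7% of all tested ORFs.

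The genes above 1 were close to it, and those with the highest lower bound of the interval are given here. RPL41A, RPL37B and RPL41B had ratios of 1.106, 1.089 and 1.084 with wider intervals. RPP0 (YLR340W, XII, 805887 to 806825), the stalk base, counted 29745 against 27290 reads, giving a ratio of 1.14 (1.12 to 1.16), and it overlaps YLR339C. RPL30 (YGL030W, VII, 439096 to 439643), whose protein represses splicing of its own transcript, counted 8214 against 7203 reads, giving a ratio of 1.09 (1.05 to 1.12). RPL2A counted 12356 against 10693 reads, giving a ratio of 1.07 (1.05 to 1.103). With the GC trend removed RPL2A was at 0.968 (0.943 to 0.993), on the other side of 1. RPL43B was at 1.09 (1.04 to 1.15) on 3381 and 2972 reads. With scaling by total counts the intervals of RPL30, RPL2A and RPL43B all held 1, and only that of RPP0, at 1.06 (1.05 to 1.08), lay above 1. In the reverse read column alone 1 gene, RPL41B, was higher by 1.5-fold, against 3.03% of all tested ORFs.

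The 35 pairs behaved alike in most cases. Both copies lay below 1 in 25 pairs, both above 1 in 6, and on either side of 1 in 4, namely RPP1A and RPP1B, RPP2A and RPP2B, RPL37A and RPL37B, and RPL8A and RPL8B. With scaling by total counts only 7 of the 81 log2 ratios lay above 0, against 19 here, so these pair counts depend on scaling. The median absolute difference between the log2 ratios of A and B was 0.07, and in 22 pairs the copies' ratios were within 1.1-fold of each other. The A copy had the lower log2 ratio in 17 pairs and the B copy in 18. The median log2 ratio was -0.16 over the 35 A copies and -0.11 over the 35 B copies.

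The ratio of A to B reads changed by 25% or more, taken either way up, with a counting interval that excludes 1, in 8 of the 35 pairs. This measure does not depend on library scaling. None of the 35 pairs changed by 1.5-fold. The B copy was the lower in 5 of the 8 pairs and the A copy in 3. The copy that was lower in the mutant had more reads in the wild type in 5 of the 8, one of them being RPP1A, with 6590 reads against 6579 for RPP1B.

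**Figure D3:**
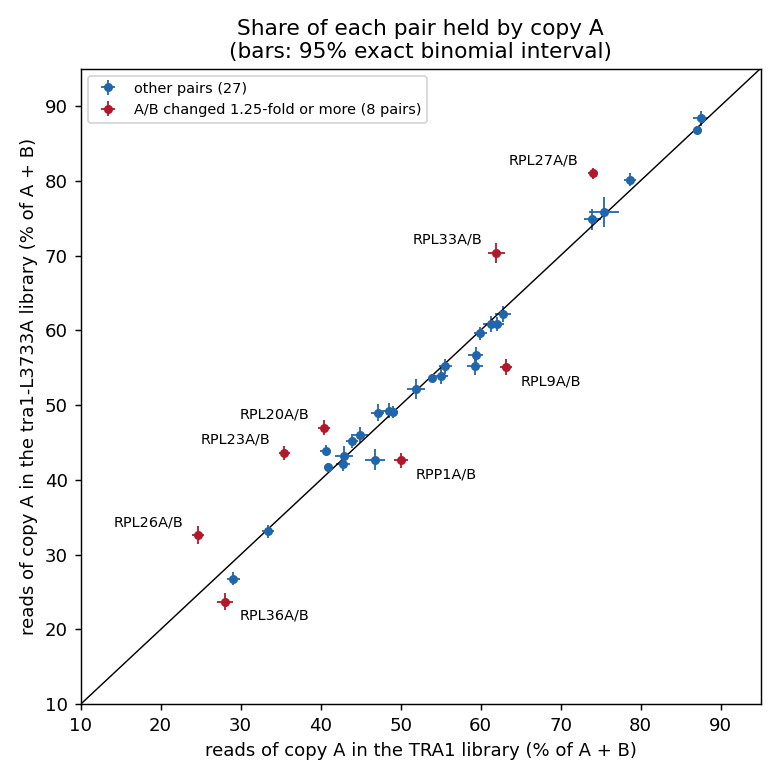
Share of each pair's reads held by copy A, wild type across and mutant up, in percent with 95% exact binomial intervals, and the line of equal shares. The 8 pairs in red changed A to B by 25% or more, with RPL27A and RPL27B going from 74.1% to 80.98% and RPL9A and RPL9B from 63.2% to 55.1%. Some of the other pairs left the line by less, though beyond counting error.

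RPL27A had 15397 and 8675 reads and was itself at 0.699 (0.681 to 0.718), so both copies were low and the B copy more so. Copy A held 74.1% of the pair in the wild type and 80.98% in the mutant, a change of A to B of 1.49-fold (1.41 to 1.58). RPL26A counted 2943 against 2043 reads, giving a ratio of 0.862 (0.814 to 0.912), and its share of the pair went from 24.7% to 32.6%, a 1.48-fold change (1.38 to 1.58). Here the minor copy was the one nearer to 1. RPL33A, which overlaps YPL142C, counted 4599 against 3296 reads, giving a ratio of 0.890 (0.850 to 0.931). Its share went from 62.0% to 70.4%, a 1.46-fold change (1.35 to 1.58). RPL23A counted 6057 against 4605 reads, giving a ratio of 0.944 (0.908 to 0.981), and its share went from 35.5% to 43.6%, a 1.41-fold change (1.34 to 1.48). RPL20A counted 6889 against 4446 reads, giving a ratio of 0.801 (0.771 to 0.832), with a share of 40.4% and then 47.0%, a 1.31-fold change (1.24 to 1.37). In these 5 pairs the B copy had the lower ratio.

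In the other 3 pairs copy A was the lower. RPL9B counted 5836 against 4095 reads, giving a ratio of 0.871 (0.837 to 0.907), and copy A went from 63.2% to 55.1% of the pair, a change of A to B of 0.715 (0.678 to 0.753). RPL36A, which overlaps YMR193C-A, counted 2246 against 1373 reads, giving a ratio of 0.759 (0.709 to 0.812). RPL36B, which overlaps YPL250W-A, counted 5772 against 4415 reads, giving a ratio of 0.9495 (0.913 to 0.988), so that copy A went from 28.0% to 23.7%, a change of 0.799 (0.739 to 0.864). RPP1A and RPP1B, the P1 proteins of the stalk, changed by 0.741 (0.703 to 0.781). Copy A held 50.04% (49.2 to 50.9%) and then 42.6% (41.6 to 43.6%), so that neither copy led in the wild type beyond counting error.

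The 2 most uneven pairs changed their shares by little. RPL22A, which overlaps BUD28, had 4177 and 3250 reads and RPL22B 595 and 429, and copy A held 87.5% (86.6 to 88.5%) and 88.3% (87.3 to 89.4%). RPL15A had 16681 and 12192 reads and RPL15B 2487 and 1859, with copy A at 87.0% and 86.8%. The ratios of these 4 genes ran from 0.895 (0.789 to 1.02) for RPL22B to 0.966 (0.922 to 1.01) for RPL22A.

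How far copies can be told apart differed between pairs, whose coding identity ran from 69.2% to 99.4% with a median of 93.2%. In 21 pairs at least 80% of the 35-base coding windows of each copy were found in 1 copy only. The median absolute difference of log2 ratios was 0.11 in these pairs, and 6 of them were among the 8 that changed by 25% or more. In 7 pairs under 50% of the windows were found in 1 copy only, and there the median was 0.02, with 0 among the 8. For these 7, such as RPL1A and RPL1B at 0.857 and 0.855, reads may have been assigned to either copy, since no source used here states how reads with several matches were handled. RPL31A and RPL31B share no window and were at 0.726 and 0.693.

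**Figure D4:**
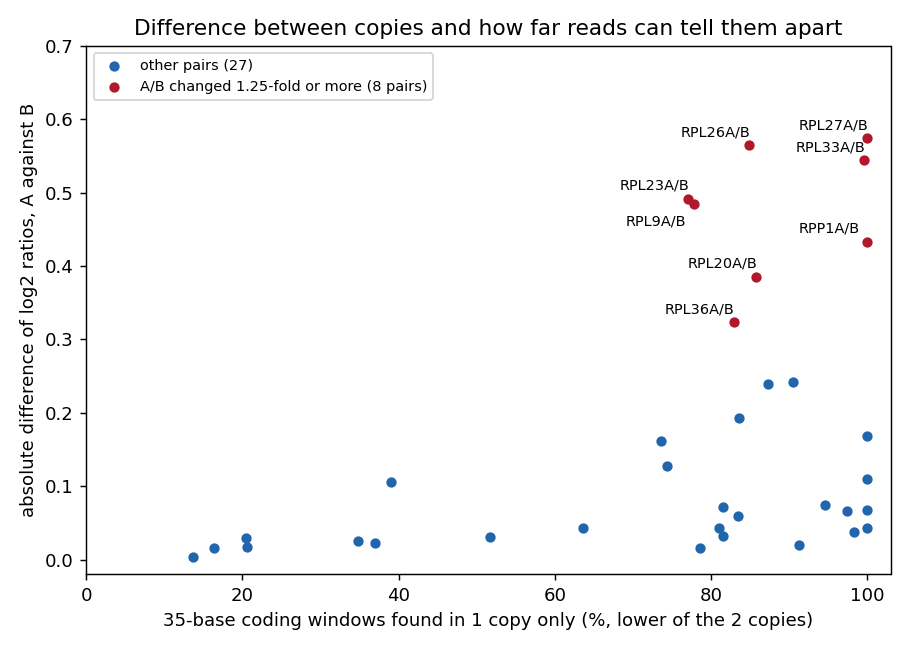
Absolute difference between the log2 ratios of copies A and B (up) against the percentage of 35-base coding windows found in 1 copy only (across) for the 35 pairs, with the 8 pairs that changed by 25% or more in red. Pairs under 50% on the horizontal axis differed by 0.11 or less, and pairs above 80% by 0.02 to 0.57.

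With the reads of both copies summed, which removes that uncertainty within a pair, the 81 genes stand for 46 proteins if each pair is counted once. The coding sequences of the RPP1 and RPP2 pairs were only 69.2% and 73.6% identical, so for them this is a count by name. The summed ratio of the pairs had a median of 0.910 and ran from 0.631 (0.614 to 0.648) for RPL42 to 1.101 (1.03 to 1.17) for RPL41, and 28 of 35 lay below 1. RPL27 at 0.640 (0.625 to 0.655) and RPL26 at 0.652 (0.632 to 0.672) were the other pairs below the 1.5-fold line. With RPL29, 4 of the 46 proteins passed it, and 5 of the 9 lower genes belong to RPL29, RPL42, RPL27 or RPL26. The others belong to pairs whose summed ratio stayed above that line. The RPL41 sum joins read columns that went opposite ways, so its interval is too narrow. Forward and reverse ratios were 0.392 and 1.27 for RPL41A and 0.469 and 1.81 for RPL41B.

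The 11 genes with no copy had a median log2 ratio of -0.18, beside -0.15 for the 70 genes with a copy, and 1 of 11 and 8 of 70 were lower. The highest of them was RPP0, already given. RPL5, which carries the 5S ribosomal RNA into the subunit together with the RPL11 proteins, counted 19864 against 16988 reads, giving a ratio of 1.06 (1.04 to 1.08), or 0.992 (0.972 to 1.01) with scaling by total counts. RPL3 counted 44786 against 34682 reads, giving a ratio of 0.961 (0.948 to 0.975). RPL10, which overlaps YLR076C, counted 38891 against 29457 reads, giving a ratio of 0.940 (0.926 to 0.955). These abundant transcripts lay close to 1. With scaling by total counts RPL3 was at 0.898 (0.886 to 0.911) and RPL10 at 0.879 (0.865 to 0.892).

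RPL32 counted 9823 against 6967 reads, giving a ratio of 0.880 (0.854 to 0.908). RPL28, which overlaps YGL102C, counted 22691 against 15686 reads, giving a ratio of 0.858 (0.841 to 0.876). RPL25, the docking site at the tunnel exit for factors that meet the new chain, counted 8108 against 5280 reads, giving a ratio of 0.808 (0.781 to 0.837). Among the genes with no copy the smallest proteins gave the lowest ratios. RPL38 counted 5102 against 2959 reads, giving a ratio of 0.720 (0.688 to 0.753), and RPL39, which lines the tunnel and overlaps BUD19, had 1614 and 884 reads. With RPL29 these are the 3 shortest coding sequences of the 11.

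Several short genes gave uneven read directions. For RPL39 the ratio was 0.886 in the forward and 0.391 in the reverse column, and for RPL38 it was 0.530 and 0.779. RPL41A had 292 forward and 1259 reverse reads in the wild type and 92 and 1290 in the mutant, or ratios of 0.392 and 1.27. Its total ratio of 1.11 (1.03 to 1.19) thus joins columns that went opposite ways. The intervals of both columns failed to overlap for 14 of the 81 genes (17.3%), against 2.50% of tested ORFs, so the intervals of these 14 are too narrow. Such gaps show more readily with many reads. They were found in 75 of the 878 other ORFs at or above the lowest member's wild-type level. Up to 300 bases of coding length, 6 of 9 members and 20 of 197 other ORFs had them. Among the 9 lower genes, RPL29 and RPL42A were of the 14.

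By coding length, members above 300 and up to 450 bases had a median log2 ratio of -0.23 (32 genes, 5 lower) and members above 450 and up to 600 bases -0.22 (24 genes, 3 lower). Other tested ORFs of these lengths were at -0.11 and -0.05, and 11.7% and 9.04% of them were lower. The 16 members above 600 bases had a median of 0.01 with 0 lower, where other ORFs of up to 1500 bases were at 0.02 with 5.33% lower. With the GC trend removed the median of these 16 was -0.13, with 11 below 0, and that of the other ORFs -0.00. The 9 members of up to 300 bases had a median of 0.09, beside -0.13 for other ORFs, of which 11.7% were lower, and in the forward column alone the members' median was -0.17. The longest of the 9 lower members was RPL9A, at 576 bases, and lower calls made up a larger share of the other short ORFs than of the longer ones as well.

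**Figure D5:**
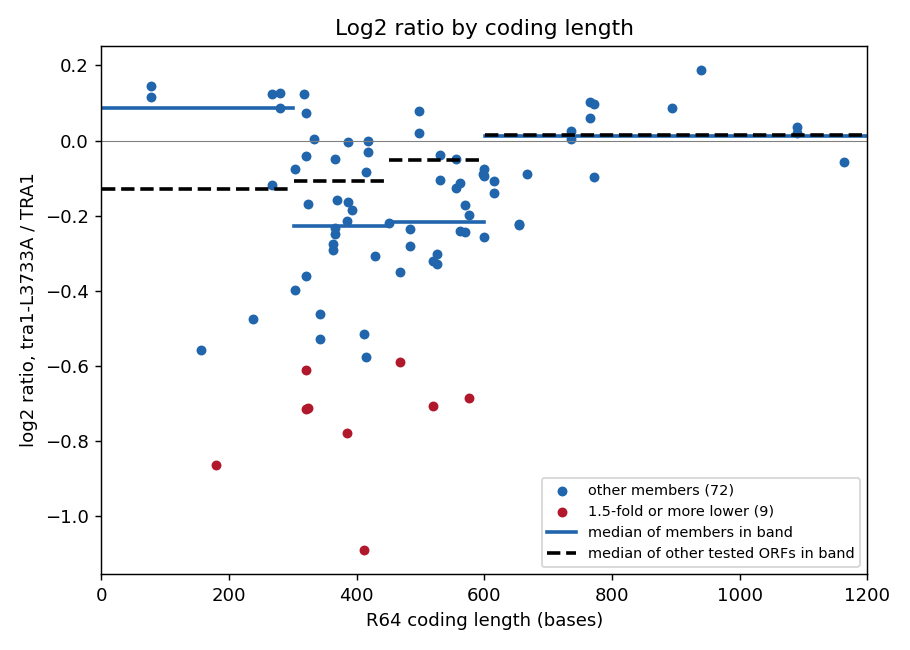
Log2 ratio of each of the 81 genes (up) against its R64 coding length in bases (across), the 9 lower genes in red, with medians of the members (solid) and of other tested ORFs (dashed) in 4 length bands. Members between 300 and 600 bases have medians of -0.23 and -0.22, and the 16 longer members lie at a median of 0.01, which is -0.13 with the GC trend removed.

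By role, 4 of the 5 stalk genes lay between 0.972 and 1.14. RPP0 anchors dimers of the P1 and P2 proteins. RPP1B counted 6579 against 5577 reads, giving a ratio of 1.05 (1.02 to 1.09), RPP2A 5491 and 4301 reads and 0.972 (0.934 to 1.01), and RPP2B 7329 and 5917 reads and 1.002 (0.968 to 1.04). RPP1A was the exception with 6590 and 4138 reads and a ratio of 0.779 (0.750 to 0.811), with 0.878 in the forward and 0.689 in the reverse column. The 4 genes near the peptidyl transferase centre, RPL2A, RPL2B, RPL3 and RPL10, had ratios of 0.940 to 1.07. With the GC trend removed these 4 genes were at 0.912 to 0.968, each with an interval wholly below 1.

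The 14 genes of the exit tunnel and its rim had a median log2 ratio of -0.26. Of them 12 lay below 0 (85.7%, against 76.5% of the 81 members and 50.4% of all tested ORFs). By 1.5-fold 1 was lower (7.14%, against 11.1% of the 81 members and 5.46% of all tested ORFs). RPL4A and RPL4B, whose protein reaches into the tunnel, were at 1.01 and 1.02, while RPL31A and RPL31B were at 0.726 (0.693 to 0.760) and 0.693 (0.640 to 0.750). Of the proteins that bind 5S ribosomal RNA, RPL11A was at 0.796 (0.770 to 0.824) and RPL11B at 0.811 (0.781 to 0.842), below RPL5. RPL40A and RPL40B, made as fusions to ubiquitin, were at 0.892 (0.858 to 0.927) and 0.997 (0.953 to 1.04).

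The promoters of these genes were searched for what the naming rule did not use. The letters ACCCNNACA, a core of the Rap1 motif, were found on either strand within the 500 bases before the start codon (R64) in 36 of the 81 genes (44.4%), against 324 of all 5897 such windows (5.49%). The letters GACGCA, linked to Fhl1, were found in 15 of 81 (18.5%), against 10.3% of all windows, and no match of one motif overlapped a match of the other. Among the 9 lower genes 6 held the Rap1 letters and 0 the Fhl1 letters, and among the other 72 these numbers were 30 and 15. The lower genes without the Rap1 letters were RPL24A, RPL29 and RPL42A. RPL24A and RPL29 have no R64 coding intron, yet their listed ORFs are 463 and 334 bases longer than the coding sequence. The same holds for RPL24B and RPL32, by 399 and 333 bases, which also lack the letters and were not among the lower genes. If that extra sequence lies before the start codon, it fills much of the 500 bases searched, and sites farther upstream would be missed. The median log2 ratio was -0.22 over the 36 members with the Rap1 letters and -0.11 over the 45 without. A match describes the sequence and is not a measured site.

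Windows of 100 bases around the Rap1 match are shown for 4 lower genes and for 2 genes with ratios of 1.05 and 1.04, read towards the start codon, with matches in capitals. They are from R64 (RefSeq): RPL27B at chrIV:1401389-1401488 and RPL26B at chrVII:555482-555581 on the forward strand, RPL20B at chrXV:901497-901596 and RPL9A at chrVII:228586-228685 on the reverse strand, and RPP1B at chrIV:229586-229685 and RPL2B at chrIX:316328-316427 on the forward strand.
RPL27B: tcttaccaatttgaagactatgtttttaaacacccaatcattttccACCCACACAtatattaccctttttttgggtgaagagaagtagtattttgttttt
RPL26B: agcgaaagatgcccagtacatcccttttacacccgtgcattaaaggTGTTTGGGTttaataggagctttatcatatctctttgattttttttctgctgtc
RPL20B: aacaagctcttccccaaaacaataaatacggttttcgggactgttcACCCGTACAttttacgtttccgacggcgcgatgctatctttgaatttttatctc
RPL9A: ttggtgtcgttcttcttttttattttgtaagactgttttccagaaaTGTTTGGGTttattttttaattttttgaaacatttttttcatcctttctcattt
RPP1B: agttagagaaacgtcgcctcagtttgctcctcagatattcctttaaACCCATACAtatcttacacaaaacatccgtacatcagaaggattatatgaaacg
RPL2B: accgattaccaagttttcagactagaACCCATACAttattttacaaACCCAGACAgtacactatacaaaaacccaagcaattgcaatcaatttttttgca

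The match nearest to the start codon ended 326 bases before it in RPL27B, 275 in RPL26B, 347 in RPL20B and 301 in RPL9A. The match ended 265 bases before it in RPP1B, at a ratio of 1.05, and 385 in RPL2B, at 1.04 and with 2 matches. With the GC trend removed RPP1B was at 0.930 (0.897 to 0.964) and RPL2B at 0.961 (0.940 to 0.982), so their side of 1 depends on that setting.

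Regulators and chaperones of these genes and proteins stayed within 1.5-fold. Of 10 regulators of ribosomal protein genes 0 were lower and 0 higher, against 5.46% and 2.8% of all tested ORFs. A list this short cannot be told from those shares. Its median log2 ratio was -0.08. RAP1 counted 906 against 921 reads, giving a ratio of 1.26 (1.15 to 1.38), and SFP1 was at 1.08 (0.983 to 1.19). FHL1 counted 756 against 482 reads, giving a ratio of 0.791 (0.705 to 0.888), and IFH1, its partner, 1067 and 699 reads and 0.813 (0.738 to 0.895), with an overlap with YLR222C-A. TOR1 was at 0.812 (0.746 to 0.883). Of the 10 regulator intervals 3 lay wholly below 1 and 1 above, against 25.5% and 24.2% of all tested ORFs. Of 5 dedicated chaperones of large subunit proteins, a still shorter list, 0 passed either way, with a median of 0.17. RRB1, which binds the RPL3 protein, was at 1.14 (1.06 to 1.22), and SQT1, which binds the RPL10 protein, at 1.14 (1.07 to 1.22). BCP1 went the other way, at 0.797 (0.665 to 0.954). Of the 5 chaperone intervals, 3 lay wholly above 1 and 1 below, against 24.2% and 25.5% of all tested ORFs.

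Beside the 57 genes of the small subunit, the large subunit genes lay nearer to 1. The small subunit genes had a median log2 ratio of -0.31, with 14 of 57 lower and 0 higher, against -0.16 and 9 of 81 here. That difference has no test with 1 library per strain. The 34 mitochondrial large subunit genes listed as MRPL had a median of -0.06, with 1 lower and 0 higher.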

How the data were processed

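Both libraries came from total RNA with integrity numbers above 8.9, and each was read on a single Genome Analyzer II lane as 35-base reads, per the labels' protocols. The submitters' processing notes name Novoalign. No version, genome build or rule for reads with several matches is stated in the sources used. Raw read counts per ORF, deposited in the columns fr and rr per the file headers, were taken as read directions and summed. A deposited coverage signal equals these reads per base in all 13206 entries (tolerance 1e-06) and was not used further. Of 5918 ORFs matched to R64 by identifier, 918 had the R64 start, and all 81 members matched, so sequences, coding lengths and GC content came from R64 by identifier.

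Library sizes were multiplied by TMM factors from edgeR 4.0.16 under R 4.3.3, which were 1.03 (wild type) and 0.967 (mutant). Ratios have exact (Clopper-Pearson) intervals at 95%, shares exact binomial and A to B changes log-normal (Woolf) ones. Lower or higher means at least 20 reads over both libraries, a ratio of 1.5 either way and an interval that excludes 1. Log2 ratios used 0.5 added reads. No molecular identifiers are mentioned. All intervals count each read as independent, so they are too narrow if reads are copies of the same molecule. No p-value is given, since 1 library per strain leaves no spread to estimate. Genes named were the 10 lowest and 5 highest by interval bound, all without a copy, the 8 pairs that changed most, the 3 most uneven pairs (the third is not reported here) and the stalk; others were chosen after their values were seen. Members, lists and length bands were chosen with earlier results of these data known. Scripts were tested on simulated data.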

Additional observations from a re-analysis of the deposited data

How the results depend on the processing

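The count of 9 lower genes was 8 to 13 under scaling by total counts, lane reads or DESeq2 1.42.0 size factors, with the length or GC trend removed, with either read column alone, with other read filters and without overlapping ORFs. It was 13 with total counts or lane reads, where RPL23B, RPL27A, RPL31B and RPL39 joined the 9. With a difference of 25% it was 19, and with a 2-fold rule 1. No gene was higher except RPL41B, the 1 gene higher in the reverse column alone. Intervals wholly above 1 numbered 13, but 6 once the GC trend was removed and 1 when scaled by total counts or lane reads. Scaling by total counts moved the median of all tested ORFs to -0.10. The members' median then went to -0.26, or -0.25 with lane reads, and that of genes with a copy to -0.25 and -0.24. The members' share of counts was 5.24% and 4.47% of lane reads (wild type, then mutant), 5.78% and 4.86% in the forward column and 6.02% and 5.13% in the reverse column. The number of pairs that changed by 25% or more was 6 to 9 under the read columns, the window limit and the overlap limit, and 0 with a 1.5-fold rule. RPP1A with RPP1B was not among them in the forward column, nor RPL36A with RPL36B in the reverse column. The call of RPL24A was lost in the forward column and that of RPL42A in the reverse column; the cause was not tested. No paired analysis was possible because each strain has 1 library. Depth did not limit these genes, whose lowest count was 429 reads, but the lack of replicates does.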

Other observations

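Introns set the large subunit genes apart from most yeast genes, which have none. In the R64 annotation 53 of the 81 coding sequences have an intron and 28 have none. The median log2 ratio was -0.17 over the 53 and -0.10 over the 28. Of these, 6 (11.3%) and 3 (10.7%) were lower, against 5.46% of all tested ORFs. By sign, 44 of the 53 and 18 of the 28 lay below 0, against 50.4% of all. RPL7A and RPL7B, whose coding sequences are split by a pair of introns, were at 1.003 and 1.02. Of the lower genes, RPL24A and RPL29 have no intron in the R64 coding sequence, but their listed ORFs are longer than it by 463 and 334 bases.

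There were 878 other ORFs with a level at or above that of RPL22B in the wild type. Of these, 402 (45.8%) had a log2 ratio below 0, against 50.4% of all tested ORFs. Their median log2 ratio was 0.04, with 56 lower (6.38%) and 24 higher (2.73%), near the 5.46% and 2.8% of all tested ORFs. The SD of their log2 ratios was 0.35, beside 0.26 over the 81 members.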
